A study of Mus musculus with 4 samples.

Results

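Induced-only peaks deep inside genes, called members below, were ChIP-seq peaks of HA-tagged Fbxl10 (Kdm2b) that lay in the body of a protein-coding gene, away from its ends. They were chosen by 3 conditions. The peak was in the list of doxycycline-treated cells and overlapped no peak of the list of untreated cells, its midpoint lay in a protein-coding gene and more than 5 kb from every start and end of such a gene, and it lay more than 1 kb from the ends of any gene of another kind. This gave 832 peaks, which were 15.7% (95% interval 14.7 to 16.7) of the 5312 induced-only peaks and 15.1% of all 5497 induced peaks. Presence in the induced list alone and position were thus set by the choice and are no finding. The peaks that came closest to the distance limit were those of Chd5, Sim1 and Ubtf on the inside, at 5057, 5059 and 5060 bp from the nearest gene end, with scores of 54.67, 95.31 and 118.16. On the outside they were those of Msantd4, Kdm5a and Nktr, at 4998, 4990 and 4966 bp, with scores of 63.91, 51.09 and 51.42.

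The series asked where Fbxl10, a histone demethylase, binds when it is overproduced. Mouse embryonic fibroblasts from a gain-of-function model that overexpresses HA-tagged Fbxl10 received doxycycline at 1 µg/ml for 48 hours (induced) or did not (non-induced), and both groups carried the same genotype. Chromatin (7 µg) was precipitated with 5 µg of HA antibody and sequenced (ChIP-seq). There were 4 libraries, 1 per group (induced and non-induced ChIP, induced and non-induced input), and 1 peak list for each ChIP group was analysed here. Neither the promoter of the transgene nor the number of mouse lines is stated in the labels. The protocol speaks of 3 independent samples and does not say whether the lists pool them. Each condition had a single list, so nothing could be checked in replicates or tested, and every comparison is between lists. The lists hold positions and scores but no reads, so depth is unknown, and no expression, so the fibroblast label was not checked against marker genes. Intervals are 95% intervals, exact binomial for shares and Poisson for densities, and cover counting error only. Scores of both lists are set side by side below, and their common scale was not tested.

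Kdm2b removes methyl groups from lysine 36 of histone H3. Its CXXC zinc finger binds DNA with unmethylated CpG, and through this domain it brings a variant Polycomb repressive complex 1 to CpG islands, the CpG-rich stretches at many promoters. Islands also lie inside genes, where some of them are alternative promoters that start a shorter transcript. Non-induced peaks under the same position conditions serve here as the comparison, since both lists had the same gene interior to fall in.

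A feature that the choice did not use was an annotated transcription start inside the gene. The following windows show what such starts look like with and without a member. Each is the stretch of 250 bases before a RefSeq start (GRCm38.p6), written 5′ to 3′ on the strand of the gene, with every CpG in capitals. The first 5 come from the 6 genes with the highest-scoring members that cover the whole window of a start, 1 start shown per gene, and the last 3 are other starts of the same genes that had no induced peak within 1 kb. Abraxas1 encodes a scaffold of a BRCA1 complex that acts in DNA repair (chr5:100820936-100821185, minus strand), and Rbpj the DNA-binding factor of Notch signalling (chr5:53590236-53590485, plus strand). Spata13 encodes a guanine nucleotide exchange factor (chr14:60634455-60634704 with a member and chr14:60732654-60732903 without, plus strand), and Sgms1 a sphingomyelin synthase (chr19:32211014-32211263 with and chr19:32349317-32349566 without, minus strand). Abcg2 encodes a drug efflux pump (chr6:58596422-58596671 with and chr6:58640296-58640545 without, plus strand).
Abraxas1, start with a member: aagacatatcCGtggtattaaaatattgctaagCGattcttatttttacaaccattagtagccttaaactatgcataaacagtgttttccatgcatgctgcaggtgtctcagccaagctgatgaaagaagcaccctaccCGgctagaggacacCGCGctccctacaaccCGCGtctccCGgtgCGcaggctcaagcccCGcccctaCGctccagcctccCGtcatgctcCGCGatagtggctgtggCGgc
Rbpj, start with a member: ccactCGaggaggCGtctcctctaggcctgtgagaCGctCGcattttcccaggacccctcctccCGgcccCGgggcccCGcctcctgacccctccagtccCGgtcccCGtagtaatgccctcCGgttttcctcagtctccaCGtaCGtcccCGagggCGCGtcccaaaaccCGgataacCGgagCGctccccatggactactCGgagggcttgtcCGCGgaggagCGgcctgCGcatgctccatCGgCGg
Spata13, start with a member: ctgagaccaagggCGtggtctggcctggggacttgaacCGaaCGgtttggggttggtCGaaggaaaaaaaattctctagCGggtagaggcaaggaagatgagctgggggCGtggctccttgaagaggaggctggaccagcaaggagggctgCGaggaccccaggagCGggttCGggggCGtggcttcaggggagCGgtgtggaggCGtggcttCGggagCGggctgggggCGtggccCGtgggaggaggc
Sgms1, start with a member: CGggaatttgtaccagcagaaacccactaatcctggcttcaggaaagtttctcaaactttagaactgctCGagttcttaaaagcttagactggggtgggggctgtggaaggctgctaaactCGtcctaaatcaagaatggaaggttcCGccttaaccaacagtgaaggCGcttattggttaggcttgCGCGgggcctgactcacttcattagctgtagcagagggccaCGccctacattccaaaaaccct
Abcg2, start with a member: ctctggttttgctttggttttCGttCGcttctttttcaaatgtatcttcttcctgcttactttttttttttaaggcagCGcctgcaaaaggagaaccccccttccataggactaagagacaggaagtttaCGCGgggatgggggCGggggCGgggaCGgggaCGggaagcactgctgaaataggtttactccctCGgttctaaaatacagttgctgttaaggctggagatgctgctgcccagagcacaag
Spata13, start without a peak: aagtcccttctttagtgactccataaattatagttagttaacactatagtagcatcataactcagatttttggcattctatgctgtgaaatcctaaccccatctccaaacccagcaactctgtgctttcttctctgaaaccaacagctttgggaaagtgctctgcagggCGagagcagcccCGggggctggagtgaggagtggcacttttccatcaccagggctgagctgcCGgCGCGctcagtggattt
Sgms1, start without a peak: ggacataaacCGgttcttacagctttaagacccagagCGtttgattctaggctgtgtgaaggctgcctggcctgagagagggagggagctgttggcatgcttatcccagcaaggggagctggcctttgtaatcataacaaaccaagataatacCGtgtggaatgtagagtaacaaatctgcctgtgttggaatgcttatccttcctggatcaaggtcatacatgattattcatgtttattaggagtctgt
Abcg2, start without a peak: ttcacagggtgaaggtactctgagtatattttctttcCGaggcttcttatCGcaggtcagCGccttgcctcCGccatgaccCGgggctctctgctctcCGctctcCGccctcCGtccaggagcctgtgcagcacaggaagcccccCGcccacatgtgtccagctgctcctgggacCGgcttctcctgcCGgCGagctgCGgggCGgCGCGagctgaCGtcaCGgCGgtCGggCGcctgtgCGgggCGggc
The windows with a member hold 15 CpG in Abraxas1 and 25 in Rbpj. In Spata13 the start with a member has 16 CpG and the one without a peak 5, and in Sgms1 the counts are 8 and 3. Abcg2 runs the other way, with 10 CpG at the start with a member and 23 at the start without one. The peaks over these starts scored 203.83 (Abraxas1), 141.39 (Rbpj), 137.32 (Spata13), 151.39 (Sgms1) and 141.19 (Abcg2).

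An internal start is a start listed by RefSeq for a protein-coding gene with at least 1 base within 1 kb where a peak midpoint could fulfil the position conditions. There were 2342 such starts in 1737 genes. Of the 802 members on chromosomes with listed starts, 107 (13.3%, 11.1 to 15.9) had their midpoint within 1 kb of one, against 9 of 3024 non-induced-only peaks under the same conditions (0.298%, 0.136 to 0.564). In density, members stood at 29.5 per Mb (24.2 to 35.7) within 1 kb of internal starts and at 0.862 per Mb (0.799 to 0.929) in the rest of the deep gene interior. Non-induced-only peaks stood at 2.48 per Mb (1.14 to 4.72) and 3.74 per Mb (3.61 to 3.88) in the same stretches. Within 1 kb of either end of protein-coding genes, all induced-only peaks stood at 27.7 per Mb (26.6 to 28.9). That value pools 5′ and 3′ ends, so it is not a density at gene starts. Among genes without a member and of known strand, 12.6% had an induced peak at the 5′ end and 0.569% at the 3′ end. The density at 5′ ends alone was not computed.

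**Figure D1:**
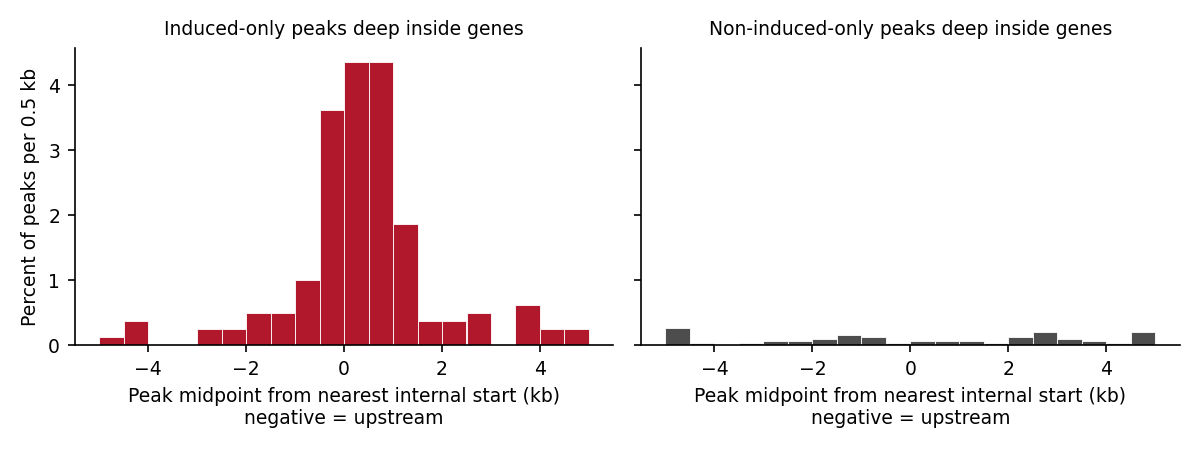
Distance of peak midpoints from the nearest internal start, in bins of 0.5 kb (negative is upstream on the strand of the gene), as the percent of 802 induced-only and 3024 non-induced-only peaks deep inside genes. Induced-only peaks gather within 1 kb of the start, mostly on its downstream side, and non-induced-only peaks show no such rise. The downstream side is favoured by the choice at starts near the limit of 5 kb from the 5′ end.

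The plot of distances from internal starts shows that the members within 1 kb of a start lay on both sides of it, more often downstream. The lean to the downstream side is partly set by the choice. Midpoints within 5 kb of a gene end were barred, so starts near that limit at the 5′ end were open mainly downstream. Gata2 is an example, with a start 4.77 kb from the 5′ end and a member 890 bp downstream of it. How much of the lean this accounts for was not tested. All 107 had the nearest start in a gene that contained them, which follows from the distance conditions and is no finding. Their midpoints were a median of 399 bp from the start, 60 of them (56.1%, 46.1 to 65.7) covered it, and 37 (34.6%) had the midpoint upstream. Within 500 bp lay 7.98% of the members and 0.0992% of the non-induced-only peaks, and within 2 kb 16.6% and 0.661%. The share near a start was larger among stronger members. It was 8.36% (5.38 to 12.3) for scores of 50 to 55, 9.30% for scores of 60 to 70, 19.4% (13.0 to 27.3) for 70 to 100, and 36.5% (26.3 to 47.6), or 31 of 85, from 100 upward. Of the non-induced-only peaks with a score of at least 100, 0 of 93 lay near an internal start, which allows up to 3.23%. Wide members showed the same order, with 6.60% near a start below 600 bp and 32.1% from 1000 bp upward. Members near a start had a median score of 72.0 (64.8 to 81.7) and a median width of 832 bp, and the other 695 had 58.3 (57.5 to 59.6) and 661 bp.

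**Figure D2:**
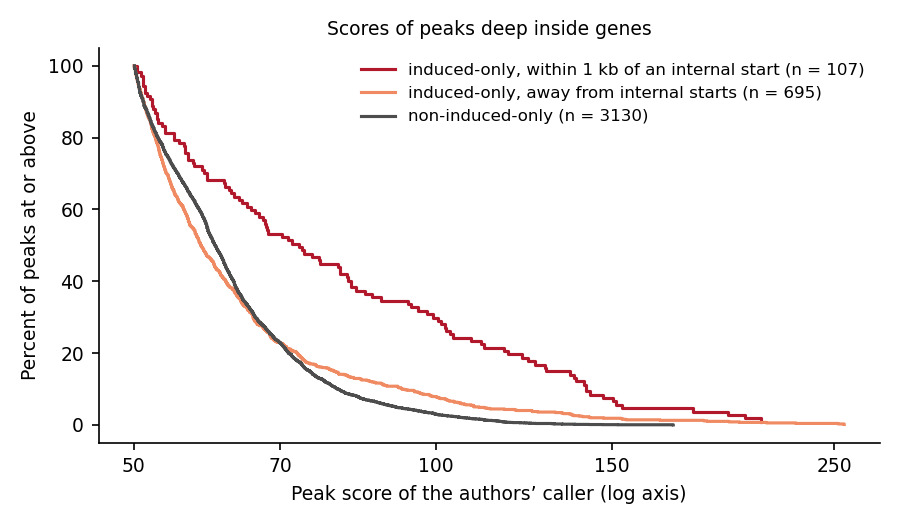
Share of peaks at or above each score of the authors' caller (log axis) for 107 induced-only peaks within 1 kb of an internal start, 695 away from one, and 3130 non-induced-only peaks deep inside genes. The peaks near internal starts reach higher scores, with a median of 72.0 against 58.3 for those away from starts and 60.2 in the non-induced list.

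Counted by start, 123 of 2342 internal starts had a member within 1 kb (5.25%, 4.38 to 6.23), in 105 genes, and 11 (0.470%, 0.235 to 0.839) had a non-induced-only peak. Starts at the ends of genes had an induced-only peak more often, in 2149 of 17382 cases (12.4%, 11.9 to 12.9). These counts differ in scope. Internal starts counted members only, so peaks in a barred part of their 1 kb window were left out. Starts at gene ends counted every induced-only peak. The share was larger at CpG-rich starts. CpG content was measured over the 300 bases from 250 before to 50 after each start as the ratio of observed to expected CpG, given the C and G present. A value near 1 means that CpG is as frequent as its bases allow, and low values are typical of the bulk of the mouse genome. Of internal starts with a ratio under 0.2, 3 of 626 (0.479%) had a member. The share was 0.996% from 0.2 to 0.4, 6.97% (4.60 to 10.0) from 0.4 to 0.6, 12.6% (9.13 to 16.8) from 0.6 to 0.8, and 14.5% (10.9 to 18.8), or 48 of 331, from 0.8 upward. The share with a non-induced-only peak was between 0.268% and 0.647% in all 5 classes. At the ends of genes the share with an induced-only peak was 0.448% in the lowest class and 23.0% (21.9 to 24.2) in the highest, so both kinds of start showed the same order. In the 3 upper classes internal starts were below starts at gene ends, with intervals that overlapped in the class from 0.4 to 0.6 and lay apart from 0.6 upward. How much of this gap came from the narrower count at internal starts was not tested.

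**Figure D3:**
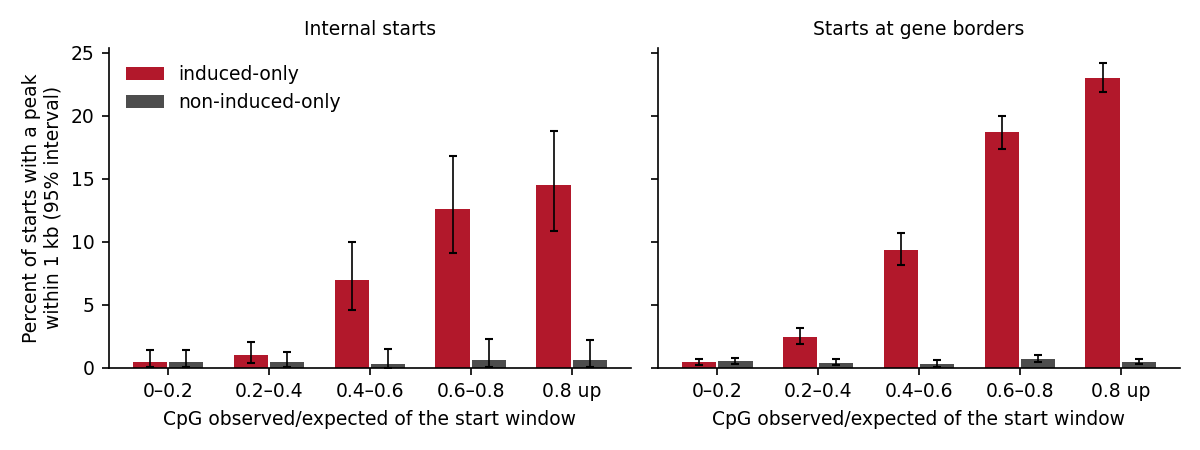
Percent of starts with a peak within 1 kb, by the observed over expected CpG ratio of the 300-base start window, for internal starts (left) and starts at gene borders (right). Bars are induced-only and non-induced-only peaks with exact 95% intervals. The induced-only share is 0.479% in the lowest and 14.5% in the highest class of internal starts. Internal starts count only peaks deep inside genes, and starts at gene borders count all peaks of the kind.

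Internal starts with a member had a median of 22 CpG in the window and a median ratio of 0.727, and those without had 6 and 0.316. The median GC content was 62.0% with and 52.7% without a member. A ratio of at least 0.6 was found at 87 of 123 starts with a member (70.7%, 61.9 to 78.6) and at 553 of 2219 without (24.9%, 23.1 to 26.8). Motifs made of CpG followed the CpG content. GGGCGG, the GC box, was present on either strand in 68.3% of windows with a member and 32.1% without, beside 46.2% of all coding starts, and CGCG was present in 74.0% and 30.2%, beside 49.2%. CACGTG, the E-box, was in 8.13% with and 5.05% without, beside 7.84%. TATAAA was in 7.32% with and 11.8% without, beside 12.6%. Except for TATAAA, each of these motifs contains CpG, so their counts are not separate from the CpG count. In 27 genes some internal starts had a member and others had none. Where a gene had several starts with a member, the highest ratio among them was taken. The start with a member had the higher CpG ratio in 20 of them, for example in Lifr, a cytokine receptor (1.070 with and 0.188 without), the exchange factor gene Arhgef7 (0.958 and 0.121) and the muscle factor gene Mef2c (0.612 and 0.228). It was lower in the others, among them Igf2, the fetal growth factor (0.791 and 0.896), and Txnrd1, a thioredoxin reductase (0.698 and 0.963). These genes were picked after their values were seen.

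Peaks at the annotated 5′ limit of the gene, with or without a listed start there, were about as frequent in genes with a member at an internal start as in those without. Of the 105 genes with one 7 (6.67%, 2.72 to 13.3) also had an induced peak within 1 kb of the 5′ end, against 121 of 1632 genes (7.41%, 6.19 to 8.79) with an internal start and no member there, so the shares did not differ beyond their intervals. RefSeq listed 49 starts at the ends of 46 of the 105 genes, so the others had no listed start there. These 49 starts had a median CpG ratio of 0.637, and 5 of them (10.2%, 3.40 to 22.2) had an induced peak. The matching share for genes without a member was not computed, so frequencies at listed 5′ starts were not compared. The term internal depends on the annotation. In 46 of the 105 genes (43.8%) the member lay at the first start that RefSeq lists, although the limits of the gene ran further 5′, as in Mga and Abraxas1. Such first starts had a member in 6.02% of cases (4.44 to 7.95), and later ones in 4.88% (3.87 to 6.06). With a CpG ratio of at least 0.6 the shares were 14.5% (10.3 to 19.4) and 13.0% (9.87 to 16.8).

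Members were weaker and narrower than induced-only peaks at genes' ends. Their median score, the value that the authors' caller gave each peak, was 59.3 (58.2 to 60.7), and their median width was 676 bp. Induced-only peaks within 1 kb of the ends of protein-coding genes had 77.9 (75.9 to 80.2) and 860 bp, and those between genes 57.4 (57.0 to 58.3) and 643 bp. A score of at least 100 was reached by 91 of 832 members (10.9%, 8.90 to 13.3) and by 1078 of all 5312 induced-only peaks (20.3%, 19.2 to 21.4). Non-induced-only peaks of the same position had a median score of 60.2 (59.8 to 60.7) and a median width of 587 bp, but their upper tail was lower. The 90th percentile was 102 for members and 79.8 for non-induced-only peaks.

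Deep gene interior open to such peaks amounted to 837 Mb. Members were found at 0.994 per Mb (0.927 to 1.06), and non-induced-only peaks at 3.74 per Mb (3.61 to 3.87), with 3130 peaks or 30.3% of the 10345 non-induced-only ones. The lists differed in where this interior was filled. Members stood at 1.84 per Mb (1.60 to 2.11) at 5 to 10 kb from the nearest gene end, at 1.05 per Mb at 10 to 20 kb, at 1.01 per Mb at 20 to 50 kb, at 0.830 per Mb at 50 to 100 kb, and at 0.575 per Mb (0.477 to 0.687) beyond 100 kb. Non-induced-only peaks ran the opposite way, from 2.87 per Mb (2.57 to 3.20) at 5 to 10 kb to 4.73 per Mb (4.44 to 5.04) beyond 100 kb. The median distance from the nearest gene end was 23.9 kb for members and 49.1 kb for non-induced-only peaks. Of 657 members in a single gene of known strand 345 (52.5%, 48.6 to 56.4) were closer to its 5′ end, so that both sides of the middle of genes were filled alike. Near the ends the sides differed. Within 10 kb of the 5′ end lay 17.4% (14.5 to 20.5) of these members, and within 10 kb of the 3′ end 10.0% (7.85 to 12.6). Of the non-induced-only peaks 5.64% and 4.94% did so. The shares of members within 10 kb include members near internal starts, some of which lay within 10 kb of the 5′ end. How much of the difference between the ends these account for was not tested. Of the members away from internal starts, 278 of 552 (50.4%, 46.1 to 54.6) were closer to the 5′ end.

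**Figure D4:**
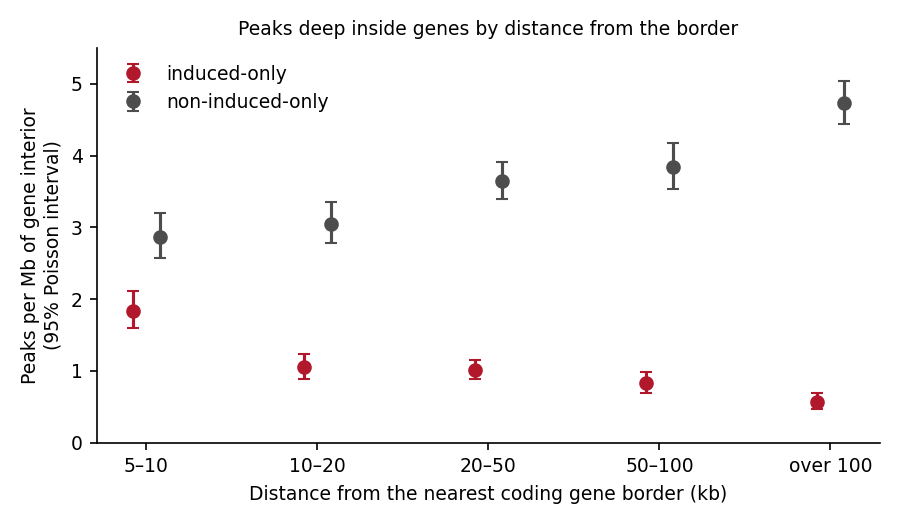
Density of induced-only and non-induced-only peaks deep inside genes (peaks per Mb of open gene interior, with 95% Poisson intervals) by distance from the nearest end of a protein-coding gene. Induced-only peaks fall to 0.575 per Mb beyond 100 kb, and non-induced-only peaks reach 4.73 per Mb there.

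The 20 members with the highest scores lay in genes of varied function. The highest score, 255.76, belonged to a peak in Smarcd3, a subunit of the SWI/SNF remodelling complex in heart and muscle (chromosome 5, 24602064 to 24604011, mm10). Its midpoint was 1035 bp upstream of an internal start, just past the 1 kb window. Nr5a2, a nuclear receptor of liver and early embryo, followed with 252.17, then Mid1, a microtubule-associated ubiquitin ligase, with 228.83. Mga, the Max partner that is part of another variant Polycomb complex, had 211.40 (chromosome 2, 119897195 to 119898617), with its midpoint 678 bp downstream of an internal start. Next came Abraxas1 (203.83), the predicted gene Gm13212 (201.05), the Mediator kinase gene Cdk8 (196.19), Phldb2, which anchors microtubules at the cell cortex (195.64, 228 bp from an internal start), and the inhibitory Smad gene Smad7 (194.59).

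Lower in the order were Tfap2a, a factor of the neural crest (186.63), a peak shared by the overlapping genes Cmss1 and Filip1l (185.13), the blood stem cell factor Gata2 (180.66), and the ADAM family gene Adam11 (167.47). Akap9, a scaffold of the centrosome, had 154.87, Mogat1, an enzyme of triglyceride synthesis, 153.69, the phosphatase gene Ptp4a2 153.39, the histone deacetylase gene Hdac4 153.21, Sgms1 151.39 and Ripor2 150.22. Of the 20 highest peaks, 7 lay within 1 kb of an internal start, those of Mga, Abraxas1, Phldb2, Gata2, Ptp4a2, Sgms1 and Ripor2. In Hdac4 the distance was 1096 bp, again just outside. Starts on chromosome 18, which holds Smad7, were not used here. The strongest non-induced-only peaks of the same position lay in Sycp1, a protein of the synaptonemal complex (172.68), the neuronal adhesion gene Cntnap2 (151.95) and the deubiquitinase gene Usp53 (146.55). Kdm2b itself, with 105 kb of open interior, held 0 members and 0 non-induced-only peaks of this kind.

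Of 13799 protein-coding genes long enough to hold a member, 731 held at least 1 (5.30%, 4.93 to 5.68), and 1738 (12.6%, 12.0 to 13.2) held a non-induced-only peak of the same position. Host genes were long, with a median of 118 kb against 33.7 kb for all genes able to hold a member. The share of hosts was 1.57% among genes under 30 kb and 23.8% among those from 250 kb upward, and for non-induced-only peaks 1.91% and 67.0%. Most hosts, 656, had 1 member, 56 had 2, and 19 had 3 or more. The most members, 7 each, were in the zinc finger genes Zfp993 and Zfp978, which have near-identical neighbours whose reads can be hard to place. Gm38510 had 5, and Gm7592, Tbx15 and the phosphodiesterase gene Pde4d had 4, as did Macrod2. A peak in the gene body did not go together with more peaks at the gene's ends. An induced peak within 1 kb of either end was present at 69 of 731 hosts (9.44%, 7.42 to 11.8) and at 1640 of 13068 genes without a member (12.5%, 12.0 to 13.1), beside 12.4% of all genes able to hold one. By length, hosts were above the others only among genes under 30 kb, with 14.1% (7.95 to 22.6) and 12.4%. The shares were 7.69% of hosts and 14.0% of the others at 30 to 60 kb, and 7.65% and 12.0% at 60 to 120 kb. They were 11.3% and 12.1% at 120 to 250 kb, and 7.56% and 9.45% from 250 kb upward. In each length class the interval of the hosts took in the share of the others.

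Genes for developmental transcription factors held members most often among the 16 gene lists examined. The lists were written with earlier results of these data known, so this rank describes the data and is not independent support. Of 59 such genes long enough, 27 (45.8%, 32.7 to 59.2) held 41 members, beside 5.30% of all genes able to hold one, and 20 (33.9%, 22.1 to 47.4) held a non-induced-only peak, beside 12.6%. Per length, members stood at 4.35 per Mb (3.12 to 5.89) of these genes' interior and at 0.992 per Mb (0.926 to 1.06) over all genes, while non-induced-only peaks stood at 2.54 and 3.72 per Mb. With only induced peaks of a score of at least 100, which left 91 members in all genes, 10.2% of the genes on the list were hosts. With both lists limited to scores from their joint median of 61.6 upward, which left 370 members, it was 30.5%. The share over all genes was not computed at these limits, so neither value can be set against 5.30%. The share of hosts was above that of all genes in each length class. Under 30 kb it was 5 of 10 genes (50%, 18.7 to 81.3, beside 1.57% of all genes of that length). At 30 to 60 kb it was 3 of 9 (33.3%, 7.49 to 70.1, beside 3.11%). At 60 to 120 kb it was 6 of 15 (40.0%, 16.3 to 67.7, beside 7.60%). At 120 to 250 kb it was 7 of 14 (50%, 23.0 to 77.0, beside 15.5%). From 250 kb upward it was 6 of 11 (54.5%, 23.4 to 83.3), an interval that takes in the 23.8% of all genes of that length.

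Peaks in these genes came in groups. Another induced peak lay within 5 kb of 23 of the 41 members (56.1%, 39.7 to 71.5) and of 62 of the 791 members elsewhere (7.84%, 6.06 to 9.94). Neighbouring members count each other, so they are not independent and these intervals are too narrow. The 41 members lay in 27 genes, and genes with grouped peaks were not counted. Gata2 had 1 member of score 180.66, centred 890 bp downstream of an internal start, with another induced peak 2674 bp away. Nfix, a factor of muscle and brain development, had 3, with scores of 142.23, 88.64 and 79.09. Tbx15, which acts in limb skeleton and skin patterning, had 4 members on chromosome 3 between 99252236 and 99258773, with scores of 124.91, 64.90, 57.70 and 53.79. Gata3, a factor of T cells and the parathyroid, had 2 (119.90 and 81.51), 1496 bp apart, of which the weaker was within 1 kb of an internal start. Near internal starts lay 6 of 40 of these members (15.0%, 5.71 to 29.8), close to the 13.3% of all. The eye and pancreas factor Pax6 had 3 members (85.75, 67.92 and 54.04), and the blood factor Runx1 had 2 (82.34 and 73.57), both near an internal start. These last examples were picked after their values were seen. Of the 27 hosts 3 had an induced peak at a gene end, Nr2f2, Six2 and Gata6, beside 15 of the 59 genes on the list (25.4%, 15.0 to 38.4).

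**Figure D5:**
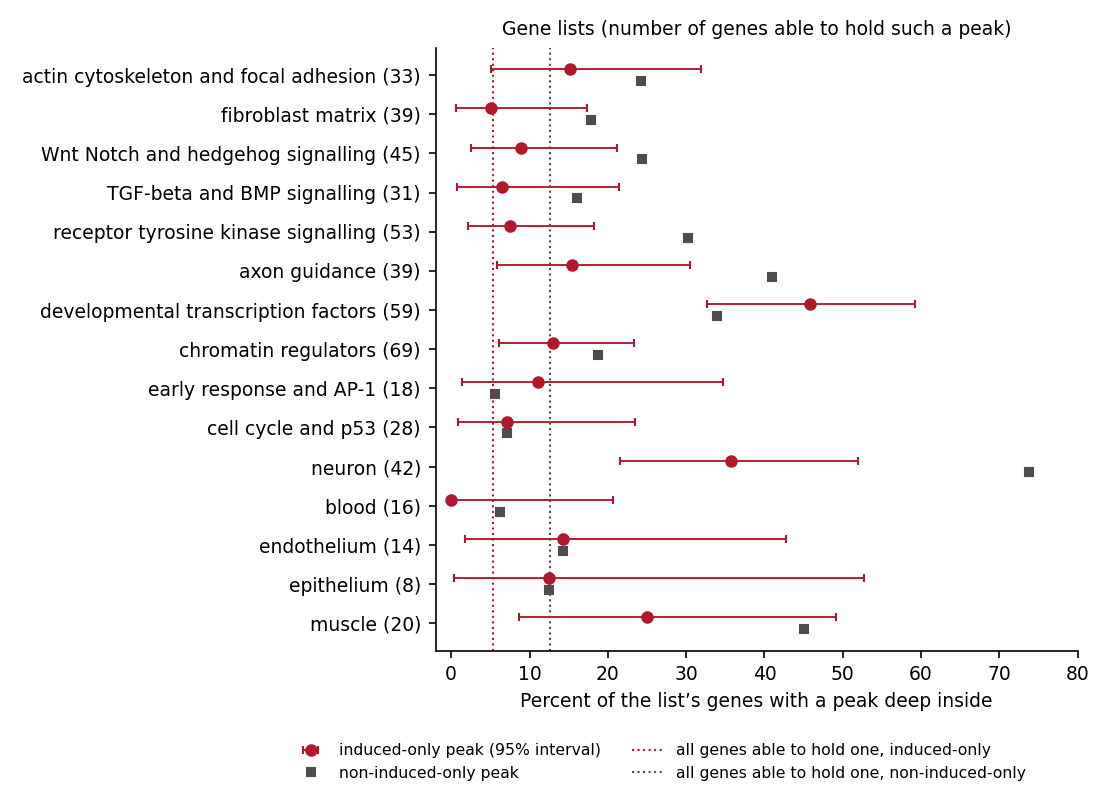
Percent of the genes of each list reported here, among those long enough, that hold an induced-only peak deep inside (circles, exact 95% intervals) or a non-induced-only one (squares). Dotted lines are the shares over all such genes, 5.30% and 12.6%; developmental transcription factor genes reach 45.8% for induced-only peaks, and neuron genes 35.7% for induced-only and 73.8% for non-induced-only peaks. Gene length is not held constant, and the lists were written with earlier results of these data known.

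Neuron genes showed the reverse balance, which was near that of long genes in general. Of 42, with 39.5 Mb of open interior between them, 15 (35.7%, 21.6 to 52.0) held a member and 31 (73.8%) a non-induced-only peak. Per length, members stood at 0.455 per Mb (0.270 to 0.720), below the 0.992 per Mb of all genes, and non-induced-only peaks at 5.54 per Mb, above 3.72. Gene length was not held constant here. Of all genes from 250 kb upward, 23.8% held a member and 67.0% a non-induced-only peak. Gene interior over 100 kb from the nearest gene end had 0.575 members per Mb, inside the interval of the neuron genes, and 4.73 non-induced-only peaks per Mb. Nrg1, a growth factor of Schwann cells and heart, had 3 members with scores up to 98.60 and 8 non-induced-only peaks. The adhesion gene Opcml had 1 member (93.77) and 6 non-induced-only peaks, Pcdh15 1 (65.75) and 10, and Pcdh9 1 (63.91) and 11. Axon guidance genes had members at 0.694 per Mb and non-induced-only peaks at 6.74 per Mb. Their hosts were 6 of 39 (15.4%, 5.86 to 30.5, beside 5.30% of all genes), with Sema3a (120.43), Sema4b (81.72), Sema5b (65.08) and Robo2 (58.69) highest.

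Chromatin regulators held members in 9 of 69 genes (13.0%, 6.14 to 23.3), at 1.51 per Mb (0.751 to 2.69), beside 5.30% and 0.992 per Mb of all genes able to hold one. They were led by Hdac4 (153.21), Auts2, part of a variant Polycomb complex in neurons (107.09), the Polycomb chromobox gene Cbx7 (102.26, 985 bp from an internal start) and the methylcytosine oxidase gene Tet1 (2 members, up to 81.96). Of 45 genes of Wnt, Notch and hedgehog signalling 4 were hosts (8.89%, 2.48 to 21.2), Rbpj (141.39), the hedgehog receptor Ptch1 (2 members, up to 100.15), the ligand Wnt5a (2, up to 68.25) and the Wnt co-receptor Lrp6 (50.42). Of 31 genes of TGF-beta and BMP signalling 2 were hosts (6.45%, 0.791 to 21.4), Smad7 (194.59) and the receptor gene Tgfbr1 (54.83). Of 53 receptor tyrosine kinase genes and their partners 4 were (7.55%, 2.09 to 18.2), with the PI3 kinase subunit Pik3r1 (131.72), the insulin receptor substrate Irs1 (98.86), the adaptor Gab2 (73.30) and the ephrin receptor Epha5 (54.93).

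Fibroblast matrix genes held members about as often as all genes able to hold one (5.30%). Of 39 such genes 2 were hosts (5.13%, 0.627 to 17.3), the collagen cross-linking enzyme gene Lox (66.29) and Adamtsl1 (54.83), and of 33 actin and focal adhesion genes 5 were (15.2%, 5.11 to 31.9, an interval that takes in 5.30%), with Diaph3 (63.45), Lpp (58.36), Actn4 (57.24) and Pdlim5 (52.01) highest. Of 28 cell cycle and p53 genes 2 were hosts (7.14%), Cdk6 (54.15) and Cdk14 (52.31), and of 18 early response genes 2 (11.1%), the nuclear receptors Nr4a1 (86.40) and Nr4a2 (81.69). Muscle genes had 5 hosts of 20 (25%, 8.66 to 49.1, above 5.30%), led by Mef2c (99.46), Ldb3 (97.32), Ryr2 (81.04) and Ryr1 (59.01). Endothelial genes had 2 of 14 (14.3%), Emcn (56.79) and Vwf (50.30), epithelial genes 1 of 8 (12.5%), Esrp1 (50.26), and blood genes 0 of 16, with 5.30% inside the interval of each of these lists but the muscle genes. Per Mb of gene interior, the interval of every list reported here other than the developmental transcription factors and the neuron genes took in the 0.992 per Mb of all genes.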

How the data were processed

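The authors deposited 1 peak list per ChIP condition, with the position and a score for each peak. Peak calling was done with MACS by the authors, which is read from the peaks' names in the deposited files, and the submitters' processing notes name Bowtie2 and mm10. Not given in the sources used here are versions, the calling threshold, the score's formula, how input was used and whether samples were pooled. Lists were assigned by the marks for with and without in their names, read through the induction label. The lowest scores were 50.00 (induced) and 50.01 (non-induced). No column of samples was left unused (0).

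Members and gene lists were chosen with earlier results of these data known. Peaks overlapped when they shared 1 bp. Genes came from a RefSeq table of GRCm38.p6 (21900 protein-coding genes), which has the coordinates of mm10, and starts and windows from RefSeq promoters of the same build, which matched 17492 of these genes. Windows on chromosome 18 were not used here, so its 30 members stand outside all counts at starts. No genome was used, so CpG was measured in start windows and not in peaks, and exons were not assigned. A gene's start and end were taken as 5′ or 3′ where a listed start gave the strand.

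Named are the 20 members with the highest scores, the 6 hosts with the most members (Macrod2 has as many as the last and is named besides), the 3 members on each side of the limit, the 3 widest, up to 4 hosts per gene list, the 3 strongest non-induced-only peaks, the 5 strongest hosts of both kinds and Kdm2b. Some genes that this rule takes, and 1 of the 16 lists, are not reported here. The other lists were actin cytoskeleton and focal adhesion, fibroblast matrix, Wnt, Notch and hedgehog signalling, TGF-beta and BMP signalling, receptor tyrosine kinase signalling, axon guidance, developmental transcription factors, chromatin regulators, early response and AP-1, cell cycle and p53, neuron, blood, endothelium, epithelium and muscle. No test was run, since regions of 1 list are not replicates. Intervals of shares are exact Clopper-Pearson intervals, and for a count of 0 the limit given is 3 counts of the total. The classing of peaks was checked on simulated peaks and against bedtools. There were 10 alternative settings, and 3 more chosen after seeing the data. Software was Biopython 1.88, matplotlib 3.10.9, SciPy 1.17.1, pandas 2.3.3, numpy 2.4.6 and Python 3.11.15.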

Additional observations from a re-analysis of the deposited data

How the results depend on the processing

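Recomputed under the alternatives were 10 values, namely the number, share, median score, median width and density of members, the share of hosts with a peak at a gene end, the shares of members and of non-induced-only peaks near internal starts, the density there and the share of developmental transcription factor genes. The comparisons by CpG, distance or gene length and those with genes without a member were not recomputed. Values that moved beyond their counting interval or by over 1.5 times were these. With induced peaks of a score of at least 100 there were 91 members, which were 8.44% of the induced-only peaks, with a median score of 126, a median width of 1180 bp and a density of 0.109 per Mb. Of their hosts 3.33% had an induced peak at a gene end, 36.5% of them lay within 1 kb of an internal start, with 8.56 per Mb there, and 10.2% of the developmental transcription factor genes held one. With both lists at or above the joint median score of 61.6 the same values were 370 members, 11.7%, 74.1, 813 bp, 0.442 per Mb, 7.12%, 20.3%, 19.9 per Mb and 30.5%. With a distance of more than 2 kb from gene ends, members were 21.8% of the induced-only peaks, with a median score of 61.2, a width of 692 bp and 1.25 per Mb. Of their hosts 12.3% had a peak at a gene end, and 17.6% of them lay near an internal start, with 37.9 per Mb there. With more than 10 kb the share of induced-only peaks was 11.7%, the density 0.858 per Mb, the share near a start 10.0% and the density there 23.6 per Mb. The share of induced-only peaks was 14.3% with more than 5 kb from other genes, and 14.5% without bins of 1 Mb that hold 4 or more members. With windows of 500 bp and 2 kb at internal starts the share was 7.98% and 16.6% of members, and 0.0992% and 0.661% of non-induced-only peaks. The alternatives at internal starts and in the developmental list were chosen after seeing the data. No paired analysis was possible because each condition has 1 peak list. The higher limits leave fewer peaks by construction. The missing replicates and read totals limit all values, since a site absent from the non-induced list cannot be told apart from one under its threshold.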

Other observations

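Some stretches of 1 Mb held several members. On chromosome 1 the bin from 85 to 86 Mb held 10, in Gm38510, Gm7592, C130026I21Rik, Sp140 and other predicted genes, and they were unusually wide. The 3 widest members of all lay there, with 4593 bp in Gm38510, 3630 bp in Sp140 and 3386 bp at C130026I21Rik. This bin also held 8 induced peaks shared with the non-induced list. On chromosome 4 the bins from 145 to 146, 146 to 147 and 147 to 148 Mb held 5, 8 and 9 members, most of them in zinc finger genes such as Zfp993, Zfp978 and Zfp980. They held 18, 15 and 20 shared induced peaks, and 8, 10 and 24 non-induced-only peaks deep inside genes. Zfp993 and Zfp978 each had 9 non-induced-only peaks besides their 7 members. Genes in these stretches have near-identical copies, and the labels do not say how reads that fit several places were treated. Other bins with 4 or more members held at most 2 non-induced-only peaks and at most 1 shared peak, among them 135 to 136 Mb on chromosome 1 (6 members, in Nav1, Lgr6, Igfn1 and other genes) and 99 to 100 Mb on chromosome 3 (4, all in Tbx15).

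The X chromosome held few peaks of either kind. Its deep gene interior of 37.6 Mb had 5 members (0.133 per Mb, 0.0432 to 0.310) and 12 non-induced-only peaks (0.319 per Mb, 0.165 to 0.557), while the autosomes had 1.04 and 3.91 per Mb. Of the 5 members 3 were in Mid1, with scores of 228.83, 124.80 and 53.14. Mid1 crosses the boundary of the pseudoautosomal region in the C57BL/6 mouse, whose sequence is shared with the Y chromosome. The number of X chromosomes in the cells is not given in the labels. Of the 731 host genes 272 (37.2%, 33.7 to 40.8) also held a non-induced-only peak of the same position, against 1466 of 13068 genes without a member (11.2%). Gene length was not held constant in this comparison, and hosts were longer. Hosts of both with strong members were Nr5a2 (252.17, and 50.78 for its non-induced-only peak), Mid1 (228.83 and 84.81), Gm13212 (201.05 and 109.36) and Cdk8 (196.19 and 52.02).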
